A study of Mus musculus with 16 samples.

Results

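Microglia that gather around amyloid switch on a set of genes for secreted and growth factors and for proteins tied to them, and 7 of these genes were followed here across 4 mouse genotypes: *Spp1* (osteopontin), *Gpnmb*, *Igf1*, *Csf1*, *Lgals3* (galectin-3), *Fabp5* and *Vegfa*. They were taken by gene symbol from a table of read counts that lists 55385 genes, and all 7 were among the 14513 genes with enough reads to be tested. RNA-seq had been run on cells carrying CD11b, an integrin chain found on microglia and the rest of the myeloid lineage, which were isolated with magnetic beads from brains whose meninges and choroid plexus had been removed. The 16 libraries came from mice aged 20 wk and comprised 4 libraries of each genotype. The paper lists female 5xFAD mice among the strains that it crossed to obtain the experimental animals. WT mice were *Card9*+/+ and carried no transgenes. *Card9*-/- mice carried a germline deletion of *Card9* and no transgenes. 5xFAD mice had intact *Card9* and the human transgenes with familial Alzheimer's disease mutations, which are expressed in neurons from the Thy1 promoter. *Card9*-/-5xFAD mice combined the germline deletion with the transgenes. The deletion was present in every cell of the animal, so it was not limited to microglia. The sources used here do not state that each library is a separate animal, and p-values therefore measure the spread between these libraries.

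CARD9 is an adaptor that carries signals from SYK-coupled receptors, such as the C-type lectin CLEC7A, to NF-κB. Microglia in contact with Aβ plaques sense lipids and apoptotic material through TREM2, another receptor that acts through SYK, and shift from a resting state to one with active lysosomes, lipid handling and secretion. Osteopontin is a secreted glycoprotein that binds integrins and CD44. IGF-1 acts on neurons, glia and vessels through IGF1R, and CSF-1 is a ligand of CSF1R, the receptor that microglia need to survive and divide. VEGF-A acts on vessels through FLT1 and KDR. Galectin-3 binds β-galactosides on glycoproteins and is both secreted and found in the cytosol and on damaged lysosomes. GPNMB is a membrane glycoprotein whose outer part can be shed, and FABP5 is a carrier of fatty acids inside the cell rather than a secreted factor.

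Between 2970148 and 19333325 reads per library were counted on genes. Reads on *Card9* itself were present in every *Card9*-deficient library (27 to 842 counts), and its level overlapped between WT (13.6 to 51.3 CPM, counts scaled to a common library size by TMM normalization) and *Card9*-/- (16.7 to 34.8 CPM), so the genotypes are taken from the labels. A library of each genotype stood apart: WT replicate 1, *Card9*-/- replicate 4, 5xFAD replicate 1 and *Card9*-/-5xFAD replicate 4 had summed levels of 10 microglial markers of 14093 to 16341 CPM, against 22710 to 37332 CPM in the other 12 libraries. All 10 microglial markers were detected in every genotype. Each of these 4 libraries also had the highest sum in its genotype of neutrophil markers (2102 to 6317 CPM, against 490 to 2395 CPM in the other 12), of border-associated macrophage markers (853 to 1950 CPM against 432 to 1293 CPM) and of choroid plexus or ependymal markers (1129 to 2499 CPM against 3.06 to 864 CPM). Results below are given for all 16 libraries, and without these 4 where that changes them. That choice was made after the data were seen.

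Promoter sequence is shown for the 3 genes that were higher with the transgenes in both *Card9* backgrounds, as given below, and whose window held a match to the AP-1 or the PU.1/ETS motif, so that the letters can be read beside the values. The windows come from RefSeq on GRCm38.p6 and run from 250 bases before to 50 bases after a listed transcription start. Windows were found for 6 of the 7 genes, and *Fabp5* had none. *Spp1* and *Vegfa* had 2 windows each. A gene is listed for a motif if any of its windows held it, whereas the shares of all windows below are per window. In *Spp1* and *Igf1* the capitals mark GAGGAA, a core recognized by PU.1 and other ETS factors. In *Igf1* and *Gpnmb* they mark TGANTCA, a loose form of the AP-1 element that allows any middle letter. The 250 bases before the listed start of *Spp1* lie at chr5:104434861-104435110 on the plus strand, and those of *Igf1* at chr10:87860861-87861110 on the plus strand, inside the *Igf1* gene of GENCODE M21, whose outermost transcript starts farther upstream. For *Gpnmb* the 27 bases at chr6:49036516-49036542 on the plus strand surround the element, just before the gene start of GENCODE M21.
Spp1: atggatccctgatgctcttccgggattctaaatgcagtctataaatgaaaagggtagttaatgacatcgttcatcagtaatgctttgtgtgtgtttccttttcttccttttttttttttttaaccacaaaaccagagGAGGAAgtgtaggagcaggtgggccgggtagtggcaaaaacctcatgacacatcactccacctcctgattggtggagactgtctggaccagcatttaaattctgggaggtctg
Igf1: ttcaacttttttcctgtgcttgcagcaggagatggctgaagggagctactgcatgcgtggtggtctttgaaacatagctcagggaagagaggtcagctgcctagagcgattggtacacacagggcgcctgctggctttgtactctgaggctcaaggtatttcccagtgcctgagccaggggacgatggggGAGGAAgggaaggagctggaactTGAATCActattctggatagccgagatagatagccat
Gpnmb: caggggcaagTGACTCAtgagcacgag
On either strand, the loose AP-1 pattern TGANTCA was found for *Igf1* (as TGAATCA, first letter at position -37 from the start) and *Gpnmb* (as TGACTCA, position 9). Of all 32851 promoter windows of this length, 7.81% hold this loose pattern. GAGGAA was found for *Spp1* (position -113), *Igf1* (position -60) and *Vegfa* (position -35, on the other strand), against 28.3% of all windows. In *Spp1* and *Vegfa* it was in the first window only, and the *Spp1* letters above are of that window. The E-box CANNTG, which also takes in the letters of both motifs of the MiT/TFE family searched (the M-box TCATGTG and the CLEAR core CACGTGA), was found for 5 of the 6 genes, all but *Csf1*, against 72.3% of all windows, and in *Gpnmb* it shares letters with the AP-1 element. Neither MiT/TFE motif was in any window of these genes, and 3.77% of all windows hold each. The hypoxia response core NACGTG, which overlaps the CLEAR core, was in a second window of *Vegfa* alone, against 19.6% of all windows. These matches are descriptions of letters and were not set against binding data.

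The first question was how the genes respond to the transgenes. In mice with intact *Card9*, 6 of the 7 genes were higher in 5xFAD than in WT at an FDR of 0.1, where 1.57% of all tested genes were higher and 0.524% lower, and the median log2 fold change was 3.42 over the 7 genes and -0.15 over all genes. In *Card9*-deficient mice 6 of 7 were again higher in *Card9*-/-5xFAD than in *Card9*-/-, against 1.49% of all genes higher and 0.482% lower, with medians of 3.25 and -0.15. *Vegfa* missed the threshold in both comparisons. The ranges of the 4 libraries did not overlap for all 7 genes in the first comparison, where 4.35% of all genes were higher without overlap, and for 6 of 7 in the second, where 3.53% were. These members were chosen with earlier results of these data known, so their excess over all genes is no independent evidence. The 7 genes together held 0.0153% to 0.0270% of the reads of each library without the transgenes and 0.122% to 0.312% of those with them. Because these are bulk libraries, more cells of a responding type and more RNA per cell cannot be told apart. The summed border-associated macrophage markers were lower in 5xFAD (619 to 853 CPM) than in WT (1073 to 1739 CPM), whereas the microglial marker sums overlapped (15529 to 35591 and 14408 to 37332 CPM), and their part in the result was not tested.

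**Figure D1:**
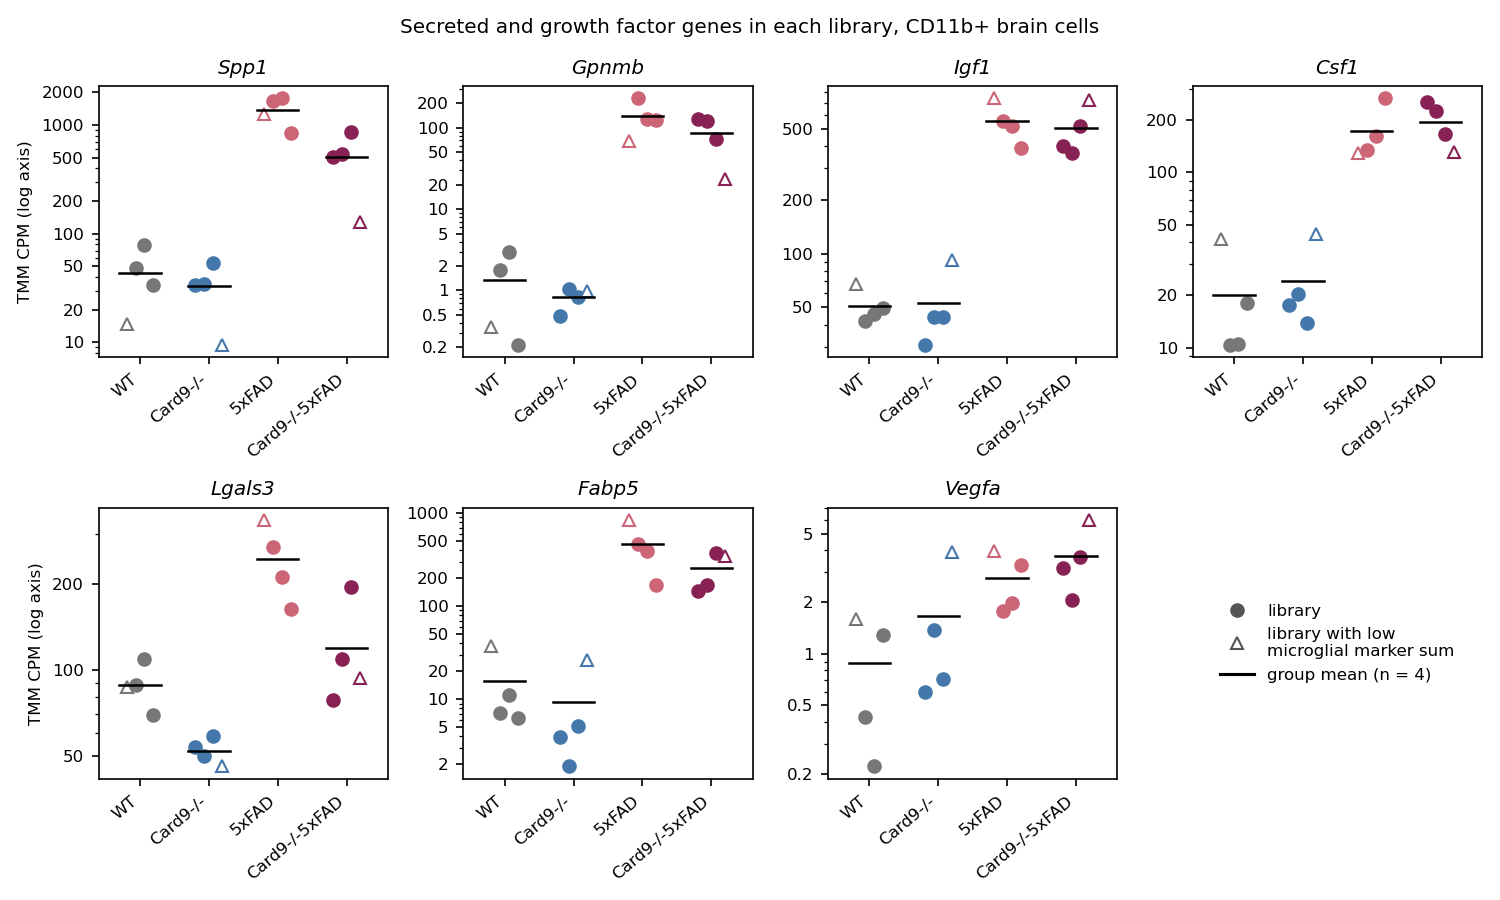
Each panel plots the level of 1 gene in TMM CPM on a log axis in every library of the 4 genotypes, with bars at the group means (n = 4) and open triangles for the 4 libraries with low microglial marker sums. In 5 of the 7 panels all 8 libraries with the transgenes lie above all 8 without them. The exceptions are *Lgals3*, whose *Card9*-/-5xFAD libraries reach down into the range of WT, and *Vegfa*, where *Card9*-/- replicate 4 reaches up into the range of the transgenic libraries.

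*Spp1* lies on chromosome 5 from 104435118 to 104441050 on the plus strand of GRCm38. Its level was 14.8, 48.1, 78.0 and 33.7 CPM in WT replicates 1 to 4 and 1274, 1662, 1761 and 841 CPM in 5xFAD replicates 1 to 4. It was 33.6, 34.5, 53.5 and 9.49 CPM in *Card9*-/- and 510, 544, 871 and 127 CPM in *Card9*-/-5xFAD. Every library with the transgenes was above every library without them, and the lowest of the transgenic libraries was *Card9*-/-5xFAD replicate 4, the shallowest of the study. The change in 5xFAD against WT was 31.7-fold (95% confidence interval 11.7 to 85.9, log2 4.99 ± 0.68 SE, adjusted p = 0.000691, edgeR). In *Card9*-/-5xFAD against *Card9*-/- it was 15.6-fold (6.01 to 40.3, log2 3.96 ± 0.65 SE, adjusted p = 0.00338, edgeR). *Spp1* alone made up 37.5% to 55.6% of the reads on the 7 genes in 5xFAD libraries and 4.25% to 30.2% in libraries without the transgenes. In *Card9*-/-5xFAD replicates 1 to 4 the share was 33.6%, 35.4%, 39.6% and 8.78%, so the last of these lay inside the range without the transgenes. GENCODE M21 places *Gm42793* over *Spp1* exons on the same strand, and that gene received 0 to 10 counts per library.

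*Igf1* spans 87858265 to 87937042 on the plus strand of chromosome 10. It read 67.4, 41.8, 46.1 and 49.4 CPM in WT and 739, 551, 515 and 392 CPM in 5xFAD. The values were 30.9, 44.5, 44.2 and 91.9 CPM in *Card9*-/- and 401, 366, 518 and 724 CPM in *Card9*-/-5xFAD. The 2 sets were far apart, with a gap of 3.98-fold between the lowest *Card9*-/-5xFAD and the highest *Card9*-/- library, and in 5xFAD the spread within the genotype was the smallest of the 7 genes (a coefficient of variation of 26.1%). The change was 10.7-fold (6.12 to 18.8, adjusted p = 0.000118, edgeR) in 5xFAD against WT. It was 9.52-fold (5.45 to 16.6, adjusted p = 0.000217, edgeR) in *Card9*-/-5xFAD against *Card9*-/-. In all 4 genotypes the library with a low microglial marker sum had the highest *Igf1*.

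*Csf1* occupies 107741048 to 107760469 of chromosome 3, minus strand. It read 41.7, 10.4, 10.6 and 18.0 CPM in WT and 129, 134, 160 and 264 CPM in 5xFAD. It read 17.5, 20.5, 14.0 and 44.5 CPM in *Card9*-/- and 252, 225, 165 and 131 CPM in *Card9*-/-5xFAD. The groups did not overlap, and WT replicate 1 and *Card9*-/- replicate 4 were high within their genotypes. The changes were 8.56-fold (4.12 to 17.8, adjusted p = 0.00286, edgeR) with intact *Card9* and 8.09-fold (3.90 to 16.8, adjusted p = 0.00359, edgeR) without it. Leaving out the 4 libraries that stood apart raised the log2 fold changes from 3.10 ± 0.50 to 3.87 ± 0.33 and from 3.02 ± 0.50 to 3.65 ± 0.33 (SE).

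*Vegfa* (chromosome 17, 46016993 to 46032369, minus strand) was close to the limit of detection, with 2 to 33 counts in a library. Its level was 1.58, 0.428, 0.221 and 1.28 CPM in WT, 0.600, 1.37, 0.711 and 3.93 CPM in *Card9*-/-, 3.94, 1.78, 1.98 and 3.27 CPM in 5xFAD and 3.16, 2.05, 3.65 and 6.01 CPM in *Card9*-/-5xFAD. All 4 5xFAD libraries were above all 4 WT libraries, while *Card9*-/- replicate 4 reached into the range of the transgenic libraries. The log2 fold change was 1.68 ± 0.66 SE in 5xFAD against WT (adjusted p = 0.342, edgeR) and 1.27 ± 0.65 SE in *Card9*-/-5xFAD against *Card9*-/- (adjusted p = 0.452, edgeR), so neither passed. Without the 4 libraries that stood apart, all 7 genes were higher in both comparisons, and *Vegfa* had log2 fold changes of 1.89 ± 0.58 SE (adjusted p = 0.0864, edgeR) and 1.67 ± 0.52 SE (adjusted p = 0.0630, edgeR). The background also rose, to 5% of 14352 genes higher in 5xFAD against WT and 10.4% in *Card9*-/-5xFAD against *Card9*-/-. A set of 24 alternative settings kept all libraries, left out 1 or used only the groups compared. Over them the adjusted p of *Vegfa* ran from 0.036 to 0.580 for 5xFAD against WT and from 0.0679 to 0.746 for *Card9*-/-5xFAD against *Card9*-/-. Of these settings only that with 1 surrogate variable in the fit took *Vegfa* past the threshold.

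*Gpnmb* (chromosome 6, 49036546 to 49070929, plus strand) had the largest fold change of the 7 genes in both comparisons. In WT it had 2, 21, 27 and 2 counts per library (0.352, 1.80, 2.98 and 0.214 CPM), and in *Card9*-/- 4, 25, 14 and 3 counts (0.480, 1.03, 0.830 and 0.981 CPM). With the transgenes it read 69.2, 231, 128 and 124 CPM in 5xFAD and 130, 122, 72.8 and 23.6 CPM in *Card9*-/-5xFAD. The lowest 5xFAD library was 23.2-fold above the highest WT library, and the lowest *Card9*-/-5xFAD library 22.8-fold above the highest *Card9*-/- library. The changes were 99.1-fold (32.6 to 301, adjusted p = 0.000147, edgeR) and 103-fold (33.2 to 320, adjusted p = 0.0002, edgeR), and few reads lay behind the levels without the transgenes.

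*Lgals3* (chromosome 14, 47367751 to 47386160, plus strand) rose least of the genes that passed. It read 87.1, 88.1, 109 and 69.5 CPM in WT and 336, 269, 212 and 163 CPM in 5xFAD. It read 53.8, 49.7, 58.8 and 45.8 CPM in *Card9*-/- and 78.2, 109, 195 and 93.7 CPM in *Card9*-/-5xFAD. Within each *Card9* genotype the transgenic libraries lay above the others without overlap, but 2 of the 4 *Card9*-/-5xFAD libraries were within the range of WT. The change was 2.77-fold (1.75 to 4.37, adjusted p = 0.0222, edgeR) in 5xFAD against WT, and the adjusted p became 0.111 without WT replicate 4. In *Card9*-/-5xFAD against *Card9*-/- it was 2.29-fold (1.45 to 3.61, adjusted p = 0.0811, edgeR). This second call rested on narrow margins: it was kept in 11 of 25 alternative settings (adjusted p from 0.0082 to 0.282), and leaving out WT replicates 2, 3 or 4, *Card9*-/- replicates 1, 2 or 3, 5xFAD replicates 2 or 3, or *Card9*-/-5xFAD replicates 2 or 3 took the adjusted p to between 0.102 and 0.282. Without the 4 libraries that stood apart it was 0.0302. Other myeloid cells than microglia can also carry galectin-3, and the neutrophil marker sums overlapped between 5xFAD (771 to 2102 CPM) and WT (1099.5 to 3607 CPM) and between *Card9*-/-5xFAD (490 to 5988 CPM) and *Card9*-/- (1143 to 6317 CPM). Their part in the result was not tested.

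*Fabp5* is also on chromosome 3, at 10012548 to 10016607 on the plus strand. It read 37.9, 7.19, 11.0 and 6.31 CPM in WT and 847, 463, 390 and 170 CPM in 5xFAD. It read 3.96, 1.90, 5.16 and 26.5 CPM in *Card9*-/- and 147, 170, 373 and 345 CPM in *Card9*-/-5xFAD. The groups with and without the transgenes were separated by at least 4.48-fold within each *Card9* genotype, and the WT and *Card9*-/- libraries that stood apart were the highest of their groups. The changes were 30.2-fold (8.41 to 108, adjusted p = 0.00613, edgeR) and 29.1-fold (8.04 to 105, adjusted p = 0.00766, edgeR). Without the 4 libraries that stood apart the log2 fold changes rose from 4.91 ± 0.87 to 5.42 ± 0.55 and from 4.86 ± 0.87 to 6.01 ± 0.57 (SE). A processed pseudogene of the gene, *Fabp5l2*, had at most 4 counts in a library.

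**Figure D2:**
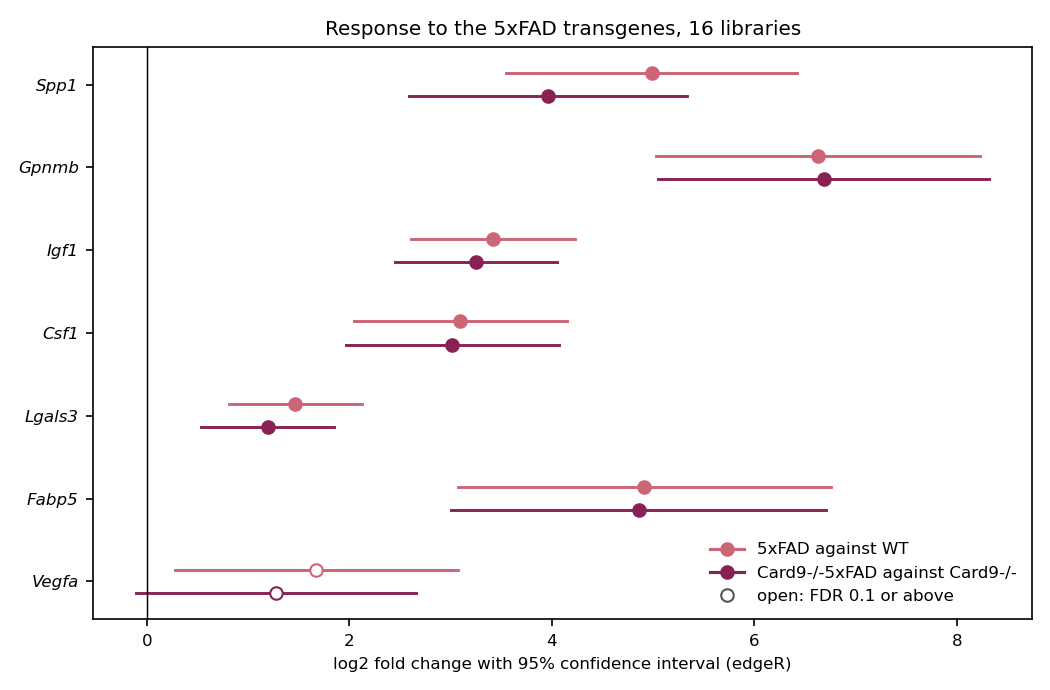
The log2 fold change of each gene (points) with its 95% confidence interval (lines) is plotted for 5xFAD against WT and for *Card9*-/-5xFAD against *Card9*-/-, from edgeR on all 16 libraries, with open points where the adjusted p was 0.1 or above. *Gpnmb* lies farthest to the right at 6.63 and 6.69, *Lgals3* at 1.47 and 1.19 is the lowest filled pair, and both points of *Vegfa* are open.

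The response itself did not differ detectably by *Card9* genotype. In the test of the interaction, none of the 7 genes and 0% of all genes passed at an FDR of 0.1 with edgeR, 78 genes had an unadjusted p below 0.05, none of them a member, and DESeq2 on all libraries called 1 gene, which was no member. The largest difference among the 7 was that of *Spp1*, whose transgene response was lower in *Card9*-deficient mice by a log2 value of -1.03 ± 0.82 (SE, 95% confidence interval -2.75 to 0.70, adjusted p = 1.00, edgeR). For *Igf1* the interval of the difference was -1.22 to 0.87 and for *Csf1* -1.46 to 1.298, so a difference of 0.87 log2 units in either direction lies inside both.

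Levels can be compared between genes only per length of transcript. Per kilobase of the longest coding transcript, *Lgals3* was the highest of the 7 without the transgenes, at 62.4 ± 11.4 CPM per kb in WT and 36.7 ± 3.92 in *Card9*-/- (SD, n = 4). *Spp1* followed at 29.0 ± 17.7 and 21.8 ± 11.97 CPM per kb and *Fabp5* at 15.8 ± 15.2 and 9.503 ± 11.6, and the ranges of these neighbours overlapped in WT between *Lgals3* and *Spp1* (49.0 to 76.9 against 9.81 to 51.8 CPM per kb) and between *Spp1* and *Fabp5* (6.40 to 38.4). With the transgenes *Spp1* was first in the order of the means, at 919 ± 278 CPM per kb in 5xFAD and 341 ± 202 in *Card9*-/-5xFAD. *Fabp5* was next, at 473 ± 286 and 262 ± 118 CPM per kb, then *Lgals3* at 173 ± 52.5 and 83.9 ± 36.9 and *Igf1* at 77.9 ± 20.4 and 71.2 ± 22.9. In 5xFAD the ranges of *Spp1* (558 to 1168.5 CPM per kb) and *Fabp5* (172 to 858) overlapped, as did those of *Fabp5* and *Lgals3* (115 to 237), whereas all *Lgals3* values lay above those of *Igf1* (55.6 to 105). *Csf1* (41.2 ± 15.05 and 46.2 ± 13.1 CPM per kb) and *Gpnmb* (37.3 ± 18.2 and 23.5 ± 13.3) overlapped each other, and *Vegfa* was last (0.795 ± 0.3004 and 1.08 ± 0.483). Thus *Gpnmb*, first by fold change, remained among the lowest by level. The place of *Fabp5* rests on the length chosen, since its longest coding transcript has 987 bases and the union of its exons 3567. For *Lgals3* these lengths are 1419 and 1858 bases.

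The second question was whether loss of *Card9* changed these genes in 5xFAD mice. None of the 7 genes passed between *Card9*-/-5xFAD and 5xFAD. Nor did any of the 14513 genes tested with edgeR (0% called), of which 366, a share under 0.05, had an unadjusted p below 0.05. DESeq2 called 2 genes on all 16 libraries and 9 on only the 8 libraries compared, none of them a member. Of the 7 genes, 5 had a negative log2 fold change, and the median was -0.66 against 0.14 for all genes. Unadjusted p-values below 0.05 were found for *Spp1* and *Lgals3*.

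For *Spp1*, 3 of the 4 *Card9*-/-5xFAD libraries (127, 510 and 544 CPM) were below every 5xFAD library (841 to 1761 CPM), and the fourth, at 871 CPM, was just above the lowest of them. The groups thus overlapped. The log2 fold change was -1.43 ± 0.59 (SE, 95% confidence interval -2.67 to -0.19, unadjusted p = 0.0263 and adjusted p = 0.993, edgeR). It ran from -1.81 without *Card9*-/-5xFAD replicate 3 to -1.11 without *Card9*-/-5xFAD replicate 4, and without the 4 libraries that stood apart it was -1.16 ± 0.37 (SE, unadjusted p = 0.00744 and adjusted p = 0.884, edgeR), with 0% of all genes called. Over 25 alternative settings the adjusted p ran from 0.386 to 1.

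*Lgals3* ranked 27th of the 14513 genes by p in this comparison, and 347th of 14352 without the 4 libraries that stood apart. Of the *Card9*-/-5xFAD libraries, 3 (78.2, 93.7 and 109 CPM) were below every 5xFAD library (163 to 336 CPM), and replicate 3 at 195 CPM was within their range. No member was below without overlap here, and 0.923% of all genes were. The log2 fold change was -1.04 ± 0.31 (SE, 95% confidence interval -1.69 to -0.39, unadjusted p = 0.00383 and adjusted p = 0.993, edgeR), or -0.76 ± 0.32 (SE, unadjusted p = 0.0316, edgeR) without the 4 libraries that stood apart. It ran from -1.39 without *Card9*-/-5xFAD replicate 3 to -0.86 without 5xFAD replicate 1, and over 25 alternative settings the adjusted p ran from 0.359 to 1.

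The other 5 genes overlapped widely between both genotypes. *Fabp5* had a log2 fold change of -0.85 ± 0.74 and *Gpnmb* of -0.66 ± 0.58 (SE), with intervals of -2.42 to 0.72 and -1.89 to 0.57. *Igf1* was at -0.13 ± 0.35 (interval -0.87 to 0.61), *Csf1* at 0.17 ± 0.46 (-0.80 to 1.14) and *Vegfa* at 0.40 ± 0.63 (-0.93 to 1.72). The interval of *Igf1*, from 0.549 to 1.52 as a fold, was the narrowest of these 5.

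**Figure D3:**
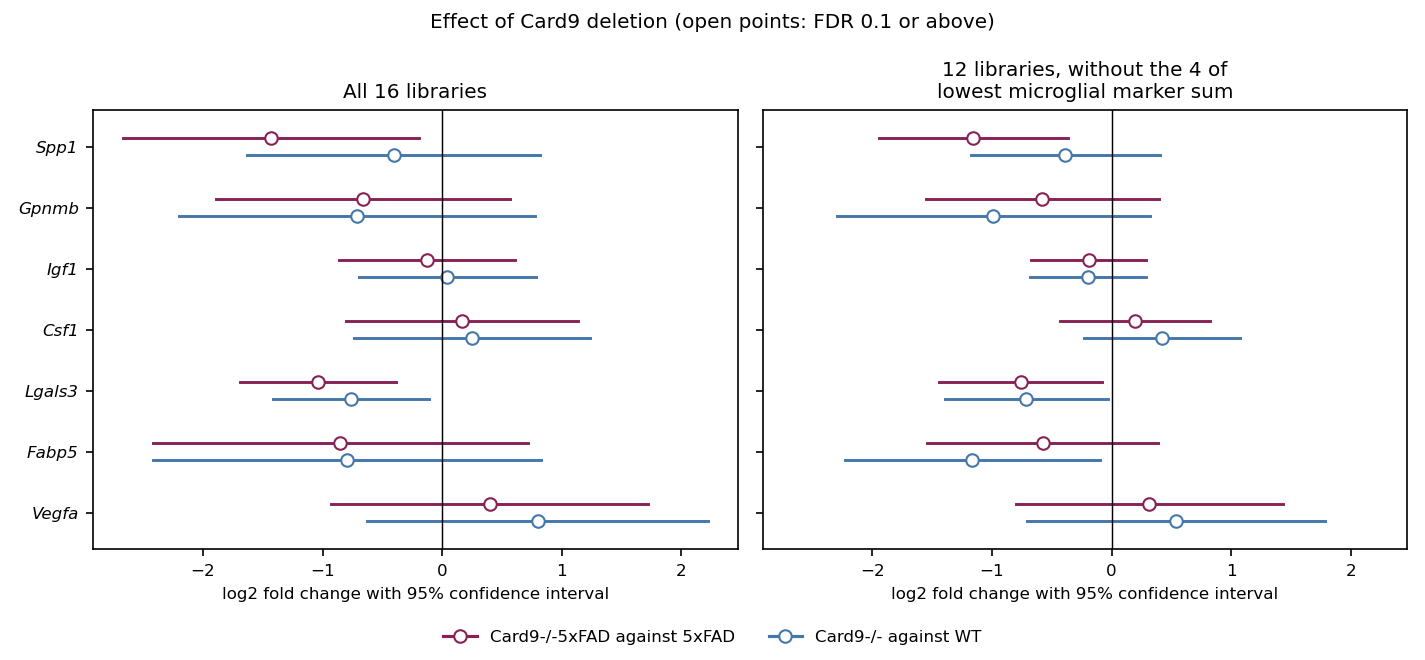
The log2 fold change for loss of *Card9* (points) with its 95% confidence interval (lines) is plotted for each gene in mice with the transgenes and in mice without them, on the left for all 16 libraries and on the right for the 12 libraries left without the 4 of low microglial marker sum. All points are open, since no adjusted p was below 0.1. In both panels the intervals of *Lgals3* and that of *Spp1* with the transgenes lie below 0. On the right that of *Fabp5* without the transgenes does so too.

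Early response genes, which cells switch on within minutes of a stimulus and also during dissociation of tissue, varied between these same libraries. In the 5xFAD libraries the summed level of 32 such genes was 4554, 6931, 9882 and 13003 CPM in replicates 1 to 4, and in *Card9*-/-5xFAD it was 14148, 16190, 15050 and 9163 CPM. Along the 5xFAD replicates in that order, *Lgals3* (336, 269, 212 and 163 CPM), *Fabp5* (847, 463, 390 and 170 CPM) and *Igf1* (739, 551, 515 and 392 CPM) were lower where the sum was higher, and *Csf1* (129, 134, 160 and 264 CPM) was higher. *Spp1* (1274, 1662, 1761 and 841 CPM), *Gpnmb* (69.2, 231, 128 and 124 CPM) and *Vegfa* (3.94, 1.78, 1.98 and 3.27 CPM) did not follow that order. The 4 libraries of *Card9*-/-5xFAD did not show that order for *Lgals3*, *Fabp5*, *Igf1* or *Csf1*. Of the 32 early response genes, all had a positive log2 fold change in *Card9*-/-5xFAD against 5xFAD (median 0.64), 7 had an unadjusted p below 0.05 and none passed with edgeR. DESeq2 called none of them on all 16 libraries and 1 on only the 8 libraries compared, the transcription factor gene *Klf4* (log2 1.57 ± 0.35 SE, adjusted p = 0.0326, DESeq2), for which edgeR gave 1.64 ± 0.74 SE (adjusted p = 0.993). Their part in the differences of *Spp1* and *Lgals3* was not tested.

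In mice without the transgenes, loss of *Card9* left all 7 genes short of the threshold, and 0% of all genes passed with edgeR, while 597 had an unadjusted p below 0.05. DESeq2 called 5 genes on all libraries and 8 on only the 8 libraries compared, none of them a member. *Lgals3* was lower in all 4 *Card9*-/- libraries (45.8 to 58.8 CPM) than in all 4 WT libraries (69.5 to 109 CPM), as 1.6% of all genes were. Its log2 fold change was -0.77 ± 0.31 (SE, unadjusted p = 0.0241 and adjusted p = 0.970, edgeR). Marker sums of other myeloid cells overlapped between *Card9*-/- and WT, for monocytes (222 to 350 and 233 to 432 CPM) and for neutrophils (1143 to 6317 and 1099 to 3607 CPM). Their part in the difference of *Lgals3* was not tested. *Fabp5* in WT replicate 1 (37.9 CPM) and *Card9*-/- replicate 4 (26.5 CPM) stood far above the other libraries of their groups, which read 6.31 to 11.0 CPM in WT and 1.90 to 5.16 CPM in *Card9*-/-. The log2 fold change of *Fabp5* was -0.80 ± 0.77 with all libraries, -2.07 ± 0.68 without *Card9*-/- replicate 4, 0.10 ± 0.73 without WT replicate 1 and -1.16 ± 0.49 without the 4 libraries that stood apart (SE, adjusted p = 0.970, 0.619, 0.963 and 0.587, edgeR).

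Because *Lgals3* was lower in both backgrounds, the effect of *Card9* averaged over mice with and without the transgenes was also tested, a contrast chosen after the data were seen that supports nothing independently. The averaged log2 fold change of *Lgals3* was -0.90 ± 0.22 (SE, 95% confidence interval -1.36 to -0.44, unadjusted p = 0.000743 and adjusted p = 0.415, edgeR), which ranked 26th of all genes. That of *Spp1* was -0.92 ± 0.41 (adjusted p = 0.531, edgeR). None of the 7 passed, and 0.0276% of all genes did, or 0.0209% without the 4 libraries that stood apart. Without those libraries *Lgals3* was at -0.74 ± 0.22 (SE, adjusted p = 0.352, edgeR) and ranked 231st of 14352 genes.

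The 7 genes did not vary together within genotypes. The deviation of each library from its group mean on the log2 CPM scale was below 0 for *Spp1* in all 4 libraries that stood apart (-1.72 to -0.06) and above 0 in all 4 for *Igf1* (0.42 to 0.92), *Fabp5* (0.53 to 2.16) and *Vegfa* (0.56 to 1.47). Over all 16 libraries, deviations of *Spp1* and *Vegfa* ran in opposite directions (Pearson r = -0.82), and those of *Igf1* and *Fabp5* together (r = 0.84). Over the 12 other libraries, with group means taken anew, *Spp1* ran with *Fabp5* (r = 0.86) and *Lgals3* (r = 0.81), and *Csf1* ran against *Spp1* (r = -0.90), *Fabp5* (r = -0.87) and *Lgals3* (r = -0.83). *Spp1* and *Fabp5* thus changed sign between the sets, from r = -0.47 over 16 libraries to 0.86 over 12. These values describe libraries that share their depth, composition and preparation, and carry no test.

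**Figure D4:**
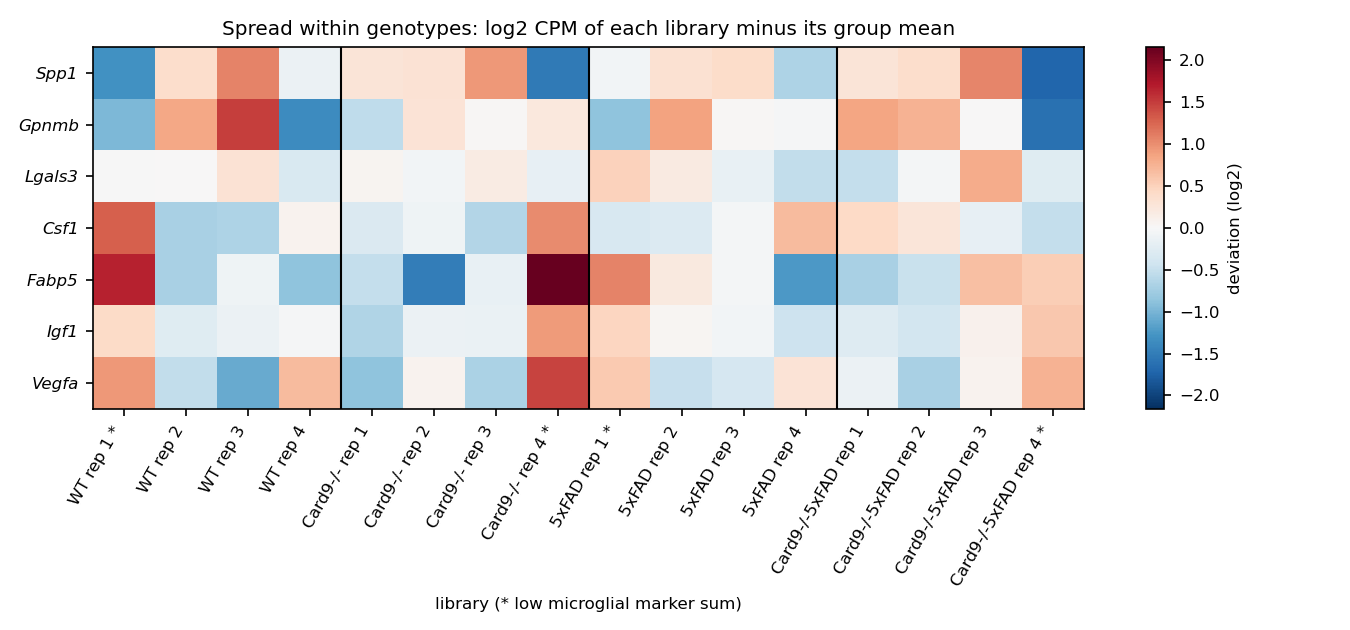
Each cell shows the log2 CPM of a gene (rows) in a library (columns) minus the mean of its genotype, red above and blue below the mean, with vertical lines between genotypes and asterisks at the 4 libraries of low microglial marker sum. In those 4 columns *Spp1* is below its group means and *Fabp5*, *Igf1* and *Vegfa* are above theirs.

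Genes whose log2 CPM was most like that of each member over the 16 libraries were named by the highest Pearson r. They were *Capg*, *Plaur* and *Cadm1* for *Spp1* (r = 0.97 to 0.99), *Clec7a*, *Speg* and *Lpl* for *Gpnmb* (0.98 to 0.99), *Fabp3*, *Gm1673* and *Dkk2* for *Igf1* (0.98), *Ptchd1*, *Efr3b* and *Il3ra* for *Csf1* (0.96 to 0.97), *Gsto1*, *Gamt* and *Ube2c* for *Lgals3* (0.95 to 0.96) and *Cd63* with its pseudogene and *Cck* for *Fabp5* (0.98 to 0.99). *Vegfa* had lower values (*Plekhh2*, *Sptbn1* and *Rai14*, 0.90 to 0.93). For all but *Vegfa* and *Lgals3* the 16 libraries form 2 separate clusters, with and without the transgenes, and these values describe that split together with the spread inside it. Within the 8 transgenic libraries other genes led, such as *Ddrgk1*, *Cxcl16* and *Ctsh* for *Spp1* (0.99) and *Eid2b*, *Gpt* and *Bad* for *Lgals3* (0.97 to 0.98). These 8 libraries include 5xFAD replicate 1 and *Card9*-/-5xFAD replicate 4, which stood apart. The genes were picked as the highest of many over few libraries, and these values carry no test.

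Few genes for receptors of the 7 members passed. Of 12 genes for osteopontin and GPNMB receptors (integrins, CD44 and syndecan-4), 9 were tested, and in 5xFAD against WT 1 was lower and none higher. Over all tested genes, edgeR called 0.524% lower and 1.57% higher in that comparison. In *Card9*-/-5xFAD against *Card9*-/- it called 0.482% lower and 1.49% higher. The receptor gene called was *Itga4*, the α4 subunit of integrins that bind VCAM-1 and osteopontin, which fell from 15.9 ± 7.47 CPM to 5.70 ± 1.32 CPM (SD, n = 4). Its log2 fold change was -1.48 (adjusted p = 0.0604, edgeR). In *Card9*-/-5xFAD against *Card9*-/- it was at -1.299 (adjusted p = 0.118, edgeR). On all libraries DESeq2 called 2 genes of the list lower there, *Itga4* (adjusted p = 0.0386, DESeq2) and *Itga9* (adjusted p = 0.0457, DESeq2). On only the groups compared it called none there. *Cd44* was at -0.57 and 0.16 and *Itgav* at -0.56 and -0.62 in both comparisons, and neither passed. The median log2 fold change of the 9 genes was -0.26 and -0.11.

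In the IGF axis, 9 of 16 genes were tested and none passed in any comparison with edgeR. With DESeq2, *Igfbp4*, an IGF binding protein, was lower in 5xFAD against WT on only the groups compared and in *Card9*-/-5xFAD against *Card9*-/- on all libraries, and *Igfbp2*, another of them, was lower in *Card9*-/-5xFAD against 5xFAD on only the groups compared. *Igfbp2* read 6.85 to 24.8 CPM in 5xFAD and 0.197 to 3.48 CPM in *Card9*-/-5xFAD, without overlap. On the log2 scale it was at -3.49 ± 1.12 SE (adjusted p = 0.993, edgeR) or -3.53 ± 0.745 SE (adjusted p = 0.0196, DESeq2 on the 8 libraries). Epithelium of the choroid plexus also expresses this gene, and the marker sums of that tissue were 265 to 1337 CPM in 5xFAD and 3.06 to 1129 CPM in *Card9*-/-5xFAD. Their part in the result was not tested. *Igf1r*, the receptor of IGF-1, was at 25.5 ± 17.4 CPM in WT and 24.9 ± 13.6 CPM in 5xFAD (SD, n = 4), and *Igf2*, another ligand of it, was at most 0.0593 CPM in a library. The median log2 fold change of the 9 genes was -0.03 and -0.44 in the transgene comparisons. In the CSF axis, 5 of 8 genes were tested. *Csf1r* was at 4227 ± 1599 CPM in WT and 3206 ± 2397 CPM in 5xFAD (SD, n = 4) and did not pass, *Il34*, its other ligand, was not expressed enough to be tested, and *Csf2ra*, a subunit of the GM-CSF receptor, was higher in 5xFAD (log2 1.07, adjusted p = 0.0863) but not called in *Card9*-deficient mice (0.70, adjusted p = 0.311, edgeR). The interaction for *Csf2ra* was -0.37 (log2, adjusted p = 1.00, edgeR). In the VEGF axis, 5 of 9 genes were tested and none passed, with *Flt1* at 1.19 and 0.27 and *Nrp1* at 0.37 and 0.10 (log2).

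Among relatives of the members, *Fabp3* and *Lgals3bp* were called in both transgene comparisons. Over all tested genes, edgeR called 1.57% higher in 5xFAD against WT and 1.49% higher in *Card9*-/-5xFAD against *Card9*-/-. Of 7 further genes of the galectin list, 5 were tested, and *Lgals3bp*, a secreted ligand of galectin-3, was higher in both transgene comparisons (log2 1.82 and 2.07, adjusted p = 0.0841 and 0.0525, edgeR). *Lgals1* (-0.29 and -0.10) and *Lgals9* (0.30 and 0.50) were not called. Of 9 further fatty acid binding proteins, 3 were tested, and *Fabp3* rose from 1.70 ± 0.86 CPM in WT to 102 ± 46.8 CPM in 5xFAD (SD, n = 4), with log2 fold changes of 5.91 and 6.26 (adjusted p = 9.2e-06 and 9.99e-06, edgeR). Those of *Fabp5* were 4.91 and 4.86, and the difference between the genes was not tested. Of 32 other growth factors, 19 were tested, of which 3 were higher in 5xFAD against WT and 1 in *Card9*-/-5xFAD against *Card9*-/-, against 1.57% and 1.49% of all tested genes. *Fgf1*, a fibroblast growth factor, was higher in both (2.35 and 2.24, adjusted p = 0.00136 and 0.00199), while *Fgf2* (1.89, adjusted p = 0.0798) and *Pdgfa* (0.96, adjusted p = 0.0547, edgeR) were called in the first. DESeq2 called 3 higher and 1 lower in the first on all libraries, and 5 higher on only the groups compared. In the second it called 2 higher and 1 lower in both fits. These were *Fgf1*, *Fgf2* (adjusted p = 0.00783 and 0.00126, DESeq2) and, lower, *Bmp2* (adjusted p = 0.019 and 0.0151, DESeq2). *Tgfb1* (-0.24 and -0.69) and *Grn*, which encodes progranulin (0.74 and 0.78), were not called. Among the 32 early response genes, *Nfkbid*, a nuclear IκB protein, was lower in 5xFAD against WT (-1.13, adjusted p = 0.0325, edgeR), the only call of that list with edgeR. No gene of these lists passed in *Card9*-/-5xFAD against 5xFAD with edgeR, and DESeq2 called *Igfbp2* and *Klf4*, as above. These genes, *Igfbp4*, *Itga9* and *Bmp2* were named after their values were seen.

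**Figure D5:**
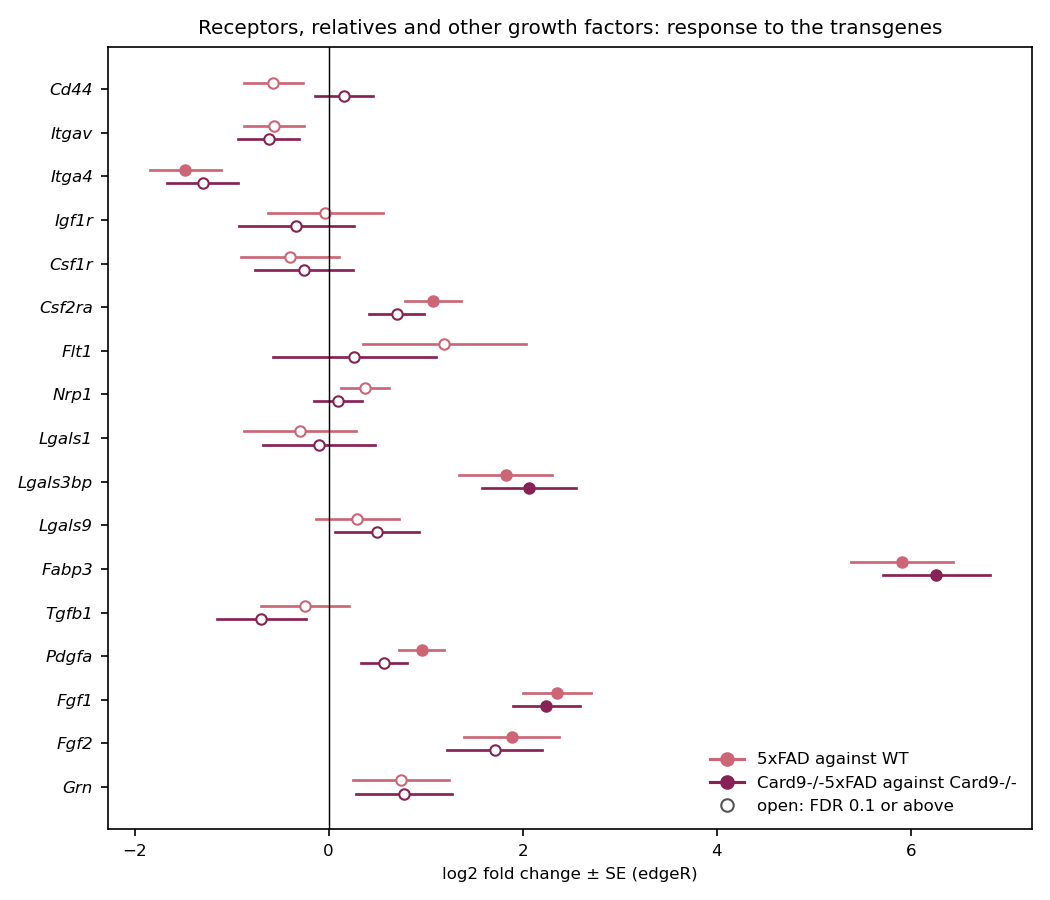
Log2 fold changes (points) ± SE (lines) of receptors, relatives and other growth factors are plotted for 5xFAD against WT and *Card9*-/-5xFAD against *Card9*-/-, with filled points where the adjusted p was below 0.1. *Fabp3* is farthest to the right at 5.91 and 6.26, *Fgf1* and *Lgals3bp* are filled in both comparisons, and the receptors *Igf1r*, *Csf1r*, *Flt1* and *Nrp1* are open in both.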

How the data were processed

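RNA-seq of CD11b+ brain cells was available for 16 libraries, 4 per genotype as given by the labels. The authors aligned reads to mm10 with HISAT2, filtered them with SAMtools and counted them per gene with HTSeq, and deposited whole-number read counts without normalization. The strand setting and annotation are not given in the sources used here. Library totals ranged from 2970148 to 19333325 counts, which limits *Vegfa* and *Gpnmb* without the transgenes most.

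Counts were tested with edgeR 4.0.16 (R 4.3.3) by quasi-likelihood in 1 fit of 4 groups, after TMM normalization and filterByExpr (minimum count 10), with Benjamini-Hochberg adjustment per contrast and an FDR threshold of 0.1, as in the study. The SE was derived from the fold change and its F statistic. Log2 CPM used a prior count of 2. Alternatives used DESeq2 1.42.0, sva 3.50.0, other filters, the replicate number as a block and each library left out. Scripts were tested on simulated data. Positions and lengths come from GENCODE M21 (GRCm38). Per gene list, all members, the fixed receptors and up to 4 genes of lowest FDR past the threshold are named. The members and lists were chosen with earlier results of these data known.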

Additional observations from a re-analysis of the deposited data

How the results depend on the processing

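The number of the 7 genes past the threshold was 5 to 7 in 5xFAD against WT and 4 to 7 in *Card9*-/-5xFAD against *Card9*-/-, and 0 in both *Card9* comparisons and the interaction under every setting run. It was 7 with 1 surrogate variable and without the 4 libraries of low microglial marker sum, an omission chosen after the data were seen. *Gpnmb* and *Vegfa* could not be tested where every library had to hold at least 10 counts. No member changed direction with a call. The count of all genes moved more, and the cause was not tested. For 5xFAD against WT it was 304, and 171 with at least 10 counts in every library, 2050 with 1 surrogate variable, 565 and 669 with DESeq2 on all libraries and on the groups compared, 1144 without the 4 libraries, and 164 to 386 with 1 library left out. For *Card9*-/-5xFAD against *Card9*-/- it was 286, and 162 at an FDR of 0.05, 185 with no filter, 148 with at least 10 counts, 2500 with 1 surrogate variable, 812 and 433 with DESeq2, 96 with edgeR on the groups compared, 2394 without the 4 libraries, and 120 to 720 with 1 library left out. For *Card9*-/- against WT it was 0, and 2 with no filter, 11 with 1 surrogate variable, 5 and 8 with DESeq2, and 0 to 1 with 1 library left out. For *Card9*-/-5xFAD against 5xFAD it was 0, and 1 with no filter, 1 with 1 surrogate variable, 2 and 9 with DESeq2, and 0 to 1 with 1 library left out. For the interaction it was 0, 1 with DESeq2 and 0 to 1 with 1 library left out.

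Replicate numbers recur between genotypes, but the correlation of deviations was not over 0.1 in every same-numbered pair (r from -0.71 to 0.734, median 0.141, over 0.1 in 15 of 24 pairs, against median 0.0225 and 33 of 72 pairs of other numbers), so the numbers were not taken as a pairing. With the number as a replicate block, 306 genes passed in 5xFAD against WT and 340 in *Card9*-/-5xFAD against *Card9*-/-, and no member gained or lost a call. Depth limits *Vegfa*, at 2 to 33 counts, and *Gpnmb* without the transgenes, at 2 to 27 counts.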
